A study of Mus musculus with 32 samples.

Results

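The forkhead genes were taken here as the protein-coding genes whose symbol is Fox followed by a letter from a to s, a number and at most one further letter, which gave 44 of the 55385 genes listed in each RNA-seq library and 44 of the 21897 protein-coding genes of the GENCODE M21 annotation. The rule used symbols and annotation, not expression values. All embryos were wild-type, from oocytes and sperm of B6D2F1/J mice aged 6 to 8 weeks, and were made by fertilization in vitro. RNA was read in 8 groups of 2 libraries. Zygotes, early 2-cell embryos and late 2-cell embryos had been kept in 10 µM A-485, an inhibitor of the histone acetyltransferases CBP and p300, or in its solvent DMSO, with the drug present from 4 hpi (hours after insemination) until 20 hpi. The late 2-cell A-485 embryos were therefore collected after the drug had been washed off. The paper reports that the global level of the histone mark H3K27ac was back at that of controls after this wash. Late 2-cell embryos of a separate experiment had been kept in 50 nM TSA, an inhibitor of histone deacetylases, or in DMSO from 8 hpi until 28 hpi. Each library came from pooled whole embryos, and the sources used here do not say that the 2 libraries of a group came from separate cultures, so each p-value measures the spread between these libraries, which may be technical. The RNA level of a bulk library cannot tell fewer transcribing embryos apart from less RNA per embryo.

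Forkhead factors share a winged-helix DNA-binding domain and fall into lettered classes with distinct work. FoxO factors are shut out of the nucleus when AKT phosphorylates them and restrain growth and the cell cycle, with Foxo3 known for holding oocytes of primordial follicles dormant. Foxm1 drives the genes of mitosis. FoxA, FoxC, FoxD, FoxF, FoxJ and FoxL members include factors that set up endoderm, mesoderm, neural tissue, motile cilia and ovary long after the cleavage stages.

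Promoters of 5 forkhead genes are shown because the results below turn on their transcripts and because they differ in CpG content and in open chromatin. Each runs from 250 bases before to 50 bases after the start site in RefSeq's annotation of GRCm38.p6, written 5′ to 3′ along the gene with CpG dinucleotides in capitals. The Foxj3 promoter (chr4:119539411-119539710, plus strand) belongs to the most abundant member. Foxr1 (chr9:44440819-44441118, minus strand) was the one member called higher from early to late 2-cell. Foxi3 (chr6:70956356-70956655, plus strand) rose at the early 2-cell stage and had an ATAC-seq peak in 3 of 4 lists. Foxd2 (chr4:114908849-114909148, minus strand) and Foxa1 (chr12:57546062-57546361, minus strand) were raised at late 2-cell after 1 and after both inhibitors.
Foxj3: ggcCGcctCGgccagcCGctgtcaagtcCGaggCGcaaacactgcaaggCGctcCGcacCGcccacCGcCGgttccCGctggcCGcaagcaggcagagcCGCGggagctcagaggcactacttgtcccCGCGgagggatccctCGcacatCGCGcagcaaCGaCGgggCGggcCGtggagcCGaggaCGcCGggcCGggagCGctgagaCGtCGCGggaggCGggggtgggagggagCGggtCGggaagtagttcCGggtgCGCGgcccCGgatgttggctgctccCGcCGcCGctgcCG
Foxr1: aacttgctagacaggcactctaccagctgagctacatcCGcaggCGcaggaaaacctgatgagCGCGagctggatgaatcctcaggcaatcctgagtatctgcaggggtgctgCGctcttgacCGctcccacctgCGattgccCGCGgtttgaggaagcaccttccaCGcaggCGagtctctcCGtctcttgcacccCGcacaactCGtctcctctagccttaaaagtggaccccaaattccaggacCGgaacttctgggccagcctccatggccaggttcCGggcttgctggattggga
Foxi3: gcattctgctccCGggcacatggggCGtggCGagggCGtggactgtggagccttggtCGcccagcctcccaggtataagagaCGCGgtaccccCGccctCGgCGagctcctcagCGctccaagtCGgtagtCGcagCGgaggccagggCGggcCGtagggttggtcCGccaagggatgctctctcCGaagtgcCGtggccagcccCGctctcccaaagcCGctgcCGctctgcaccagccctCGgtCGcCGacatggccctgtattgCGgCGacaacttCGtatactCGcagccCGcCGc
Foxd2: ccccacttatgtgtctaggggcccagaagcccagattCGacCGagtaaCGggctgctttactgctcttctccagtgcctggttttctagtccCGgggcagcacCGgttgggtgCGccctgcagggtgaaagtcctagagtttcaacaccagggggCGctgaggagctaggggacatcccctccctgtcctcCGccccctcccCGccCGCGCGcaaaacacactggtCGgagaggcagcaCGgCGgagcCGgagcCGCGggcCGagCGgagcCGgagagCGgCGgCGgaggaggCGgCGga
Foxa1: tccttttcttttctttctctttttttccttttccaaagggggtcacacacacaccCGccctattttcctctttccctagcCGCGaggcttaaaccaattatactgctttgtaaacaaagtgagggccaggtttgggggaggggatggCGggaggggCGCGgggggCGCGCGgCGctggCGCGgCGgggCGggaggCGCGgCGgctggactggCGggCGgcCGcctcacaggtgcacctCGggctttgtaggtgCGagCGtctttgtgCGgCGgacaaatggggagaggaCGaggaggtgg
These 300 bases held 42 CpG dinucleotides for Foxj3, 16 for Foxr1, 31 for Foxi3, and 26 for each of Foxd2 and Foxa1. A promoter of this length was found for 28 of the 44 members. The members' median was 22 CpG dinucleotides and that of all 32851 promoters was 7. At least 15 were present in 17 of the 28 members (60.71%) and in 34.64% of all promoters. The forkhead core motif, searched as TGTTTAC on both strands, occurred in the Foxa1 promoter and in no other of the 28 (3.57%), against 3.65% of all promoters. The motif CCAAT, searched on both strands, was present in 14 of the 28 (50.0%) and in 37.41% of all promoters. A match describes letters in the window and not a bound site.

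The RNA libraries held between 13206163 and 32585987 expected counts. Mitochondrially encoded protein-coding genes took 0.795 to 1.062% of the counts in zygotes, 2.236 to 2.504% in early 2-cell embryos and 2.347 to 2.714% in late 2-cell DMSO libraries, and 5.347 to 5.428% after A-485 and 3.661 to 3.717% after TSA at late 2-cell. Summed FPKM (fragments scaled to effective transcript length and library size) of 5 genes marking the 2-cell stage rose from 7.34 to 8.47 in DMSO zygotes to between 396.22 and 449.13 in early 2-cell DMSO libraries, so these libraries carried the stage given by their labels. All 10 oocyte and zygote markers were at 1 FPKM or more in every library.

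In zygotes the forkhead transcripts were those of a small set of regulators. The members' summed mean FPKM was 1302.6 in DMSO zygotes, 1332.2 in early 2-cell DMSO embryos, and 1203.0 and 1179.6 in the late 2-cell DMSO groups of the A-485 and TSA experiments. Of the 44 members, 12 had a mean of at least 1 FPKM in DMSO zygotes, 16 in early 2-cell DMSO embryos, and 14 and 16 in the late 2-cell DMSO groups of the TSA and A-485 experiments. Foxj3, a factor known from muscle and testis, held 64.04% of the members' summed mean FPKM in DMSO zygotes (763.52 and 904.78 FPKM in the 2 libraries). That share rests on the effective length given to Foxj3, 1518 and 1240 bases. In counts its lead was smaller, with a mean of 33770 beside 23620 for Foxo3, where all members together held 106192 and 100128. Next in FPKM came Foxo3 (120.81 and 123.29), Foxn2 (86.17 and 86.00), Foxn3, a checkpoint factor (58.83 and 54.29), and Foxk2, which works with the Sin3 corepressor (52.95 and 53.60). Foxm1 (47.01 and 53.00 FPKM) overlapped both Foxk2 and Foxo1 (51.16 and 44.15), so the order of these 3 is not set by these libraries. Foxr1 (18.02 and 18.01), Foxk1 (16.59 and 15.64), Foxp1 (6.44 and 7.25) and Foxj2 (6.48 and 5.43) followed, the last pair overlapping.

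**Figure D1:**
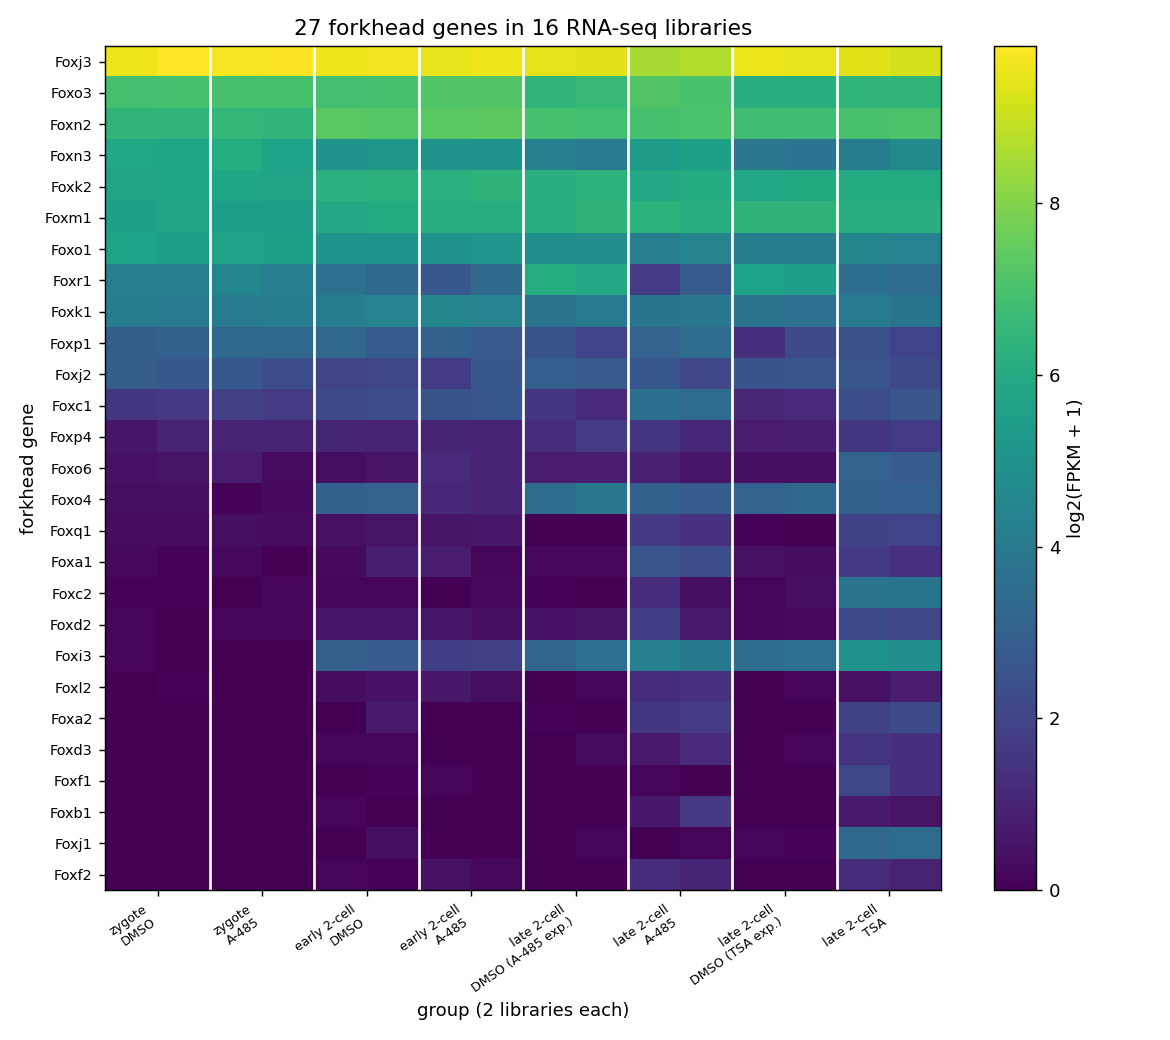
Levels of 27 forkhead genes as log2(FPKM + 1) (colour) in 16 RNA-seq libraries (columns, 2 per group, white lines between groups), genes ordered by their mean FPKM in DMSO zygotes. Foxj3, Foxo3 and Foxn2 stay high in each group, Foxi3 and Foxo4 appear from the early 2-cell stage, and the lower rows brighten mainly in the late 2-cell A-485 and TSA libraries.

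Most members of later development were at or near the detection limit in DMSO zygotes. Foxc1 was an exception with 1.97 and 2.07 FPKM, and Foxq1 had 28 and 35 counts. Of all members, 19 had at most 3 counts in each DMSO zygote library and 9 had none. Foxe3, a lens factor, had no count in any of the 16 libraries and Foxs1 had at most 2. The 16 members that neither reached a mean of 5 FPKM in any group nor were called between a treated group and its DMSO group (Foxa3, Foxb2, Foxd1, Foxd4, Foxe1, Foxe3, Foxh1, Foxi1, Foxi2, Foxl1, Foxn1, Foxn4, Foxp2, Foxp3, Foxr2 and Foxs1) lay between 0 and 2.49 FPKM over all libraries. Foxh1, the partner of Smad2 in Nodal signalling, lay between 0 and 0.71 FPKM. Among them Foxp2 alone exceeded 2 FPKM.

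From DMSO zygotes to early 2-cell DMSO embryos, Foxi3 and Foxo4, which were nearly absent in zygotes, came up strongly. In edgeR's quasi-likelihood test 4 of the 33 members tested were called higher, against 11.2% of all 20106 genes tested, and 0 were called lower, against 14.9% (DESeq2 called 5 and 0). In edgeR 16 of the 33 had an unadjusted p under 0.05, beside 10588 of all 20106 genes. Genes were called where the adjusted p was below 0.05, the groups differed 2-fold or more and one of them averaged 1 FPKM or more. The filter kept genes with 10 counts over the libraries compared, so a member nearly absent in 1 group could enter only through the other, and counts over tested members are descriptions.

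Foxi3, a factor of ectodermal placodes, went from 0.10 and 0 FPKM in zygotes to 6.96 and 6.00 in early 2-cell embryos. With 3 counts in the zygote libraries together, the ratio was 138 (95% interval 46.6 to 671, counting error only). Foxo4, the FoxO member on the X chromosome, went from 0.30 in each zygote library to 6.99 and 7.49 FPKM (log2 fold change 4.84 ± 0.27 (SE), adjusted p = 9.494e-09). Neither gene overlapped between stages. Foxc1, a mesoderm factor, stood at the fold cutoff with 1.97 and 2.07 FPKM in zygotes and 3.52 and 4.09 in early 2-cell embryos (log2 fold change 1.00 ± 0.19, adjusted p = 0.000554).

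Several maternal members differed between these stages by less than 2-fold. Foxn2 was higher (log2 0.93 ± 0.07, adjusted p = 1.651e-07), as were Foxk2 (0.61 ± 0.07), Foxm1 (0.44 ± 0.09) and Foxk1 (0.25 ± 0.09), and Foxo1 (-0.44 ± 0.08) and Foxr1 (-0.60 ± 0.20) were lower. The directions of Foxc1, Foxn2, Foxk2, Foxm1 and Foxk1 depend on the scaling. With the 13 mitochondrial genes as the scale, which moved the median log2 fold change of all genes at 1 FPKM from -0.12 to -1.45, Foxn2, Foxk2, Foxm1 and Foxk1 were lower in early 2-cell embryos, Foxc1 stood at -0.33 (adjusted p = 0.24), and the calls became 3 higher and 9 lower, while Foxi3 and Foxo4 stayed higher.

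From early 2-cell to late 2-cell DMSO embryos (those of the TSA experiment) 1 of 32 members tested was called higher, against 19.3% of 21141 genes, and 4 were called lower, against 10.3%. The one that rose was Foxr1, from 12.15 and 9.12 FPKM to 51.42 and 44.40 (log2 fold change 2.25 ± 0.15, adjusted p = 2.639e-07), and in the late 2-cell DMSO libraries of the A-485 experiment it stood at 66.54 and 60.37. Foxc1 fell back to 1.06 and 1.25 FPKM (-1.67 ± 0.21, adjusted p = 5.056e-05), and Foxn3 fell from 31.01 and 35.53 to 14.06 and 12.43 FPKM (-1.19 ± 0.10, adjusted p = 1.834e-06). Foxp1 (-1.17 ± 0.31) and Foxp2 (-1.25 ± 0.46) were the other 2 called lower. Of these 4 only the fall of Foxc1 was also called against the late 2-cell DMSO libraries of the A-485 experiment, which gave 1 lower in place of 4. Foxo1 (-0.96 ± 0.08), Foxo3 (-0.72 ± 0.06), Foxk1 (-0.55 ± 0.09), Foxn2 (-0.41 ± 0.06), Foxk2 (-0.32 ± 0.07) and Foxj3 (-0.22 ± 0.06) were lower by less than 2-fold, while Foxi3 (0.87 ± 0.24) and Foxm1 (0.30 ± 0.08) were higher. Against the other late 2-cell DMSO libraries Foxo3 (-0.39) and Foxn2 (-0.38) still had adjusted p under 0.05, and Foxo1 (-0.28, adjusted p = 0.052), Foxk1 (-0.33), Foxk2 (-0.06), Foxj3 (-0.22), Foxi3 (0.59) and Foxm1 (0.28) did not.

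The maternal members were read in every group. Over the 16 libraries Foxn2 lay between 84.48 FPKM (zygotes) and 159.84 (early 2-cell), Foxk2 between 52.87 and 81.76, Foxm1 between 43.79 and 83.79, and Foxk1 between 11.76 and 21.02. Foxp1 lay between 1.49 and 10.47 FPKM and Foxj2 between 2.36 and 6.66. Foxj3 had its lowest value, 366.40 FPKM, in a late 2-cell A-485 library and its highest, 904.78, in a DMSO zygote library.

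In zygotes A-485 left the forkhead transcripts without a call. Of 24 members tested 0 were called in edgeR in either direction, against 0.00548% of 18258 genes called higher and 0.0657% called lower. DESeq2 also called 0. In edgeR 1 member, Foxm1, had an unadjusted p under 0.05 (log2 fold change -0.16 ± 0.07, adjusted p = 0.83), beside 1073 of all 18258 genes. Foxo3, for example, stood at 122.90 and 124.77 FPKM under A-485 beside 120.81 and 123.29 in DMSO.

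At early 2-cell Foxo4 and Foxi3 were among the members lower after A-485. The DMSO libraries are those that also entered both stage comparisons, so the results are not independent of the rise from zygotes. Of 33 members tested 3 were called lower, against 7.9% of 20872 genes, and 0 were called higher, against 0.402% (DESeq2 called 3 and 0). In edgeR 8 of the 33 had an unadjusted p under 0.05, beside 4873 of the 20872 genes. Foxo4 had 6.99 and 7.49 FPKM in DMSO libraries and 1.15 and 0.94 in A-485 libraries (log2 fold change -2.79 ± 0.24, adjusted p = 5.996e-06). Foxi3 had 6.96 and 6.00 against 2.57 and 2.62 FPKM (-1.26 ± 0.32, adjusted p = 0.022). The treated and control libraries of both genes did not overlap. Of the 33 tested members 8 had both A-485 libraries below both DMSO libraries and 8 had both above. The share of all genes was not counted. Foxi3 lost its call without DMSO replicate 1 or A-485 replicate 1, where 1 call in all remained, while Foxo4 kept its call in each of these fits. The 5 markers of the 2-cell stage moved with these genes, all 5 being called lower, from a summed 449.13 and 396.22 FPKM in DMSO to 8.71 and 8.58 after A-485, and their part in the result was not tested. Foxo3 was higher by 0.29 ± 0.06 (adjusted p = 0.00546), under the 2-fold cutoff, and Foxc1 had 4.90 and 5.31 FPKM beside 3.52 and 4.09 (adjusted p = 0.10).

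**Figure D2:**
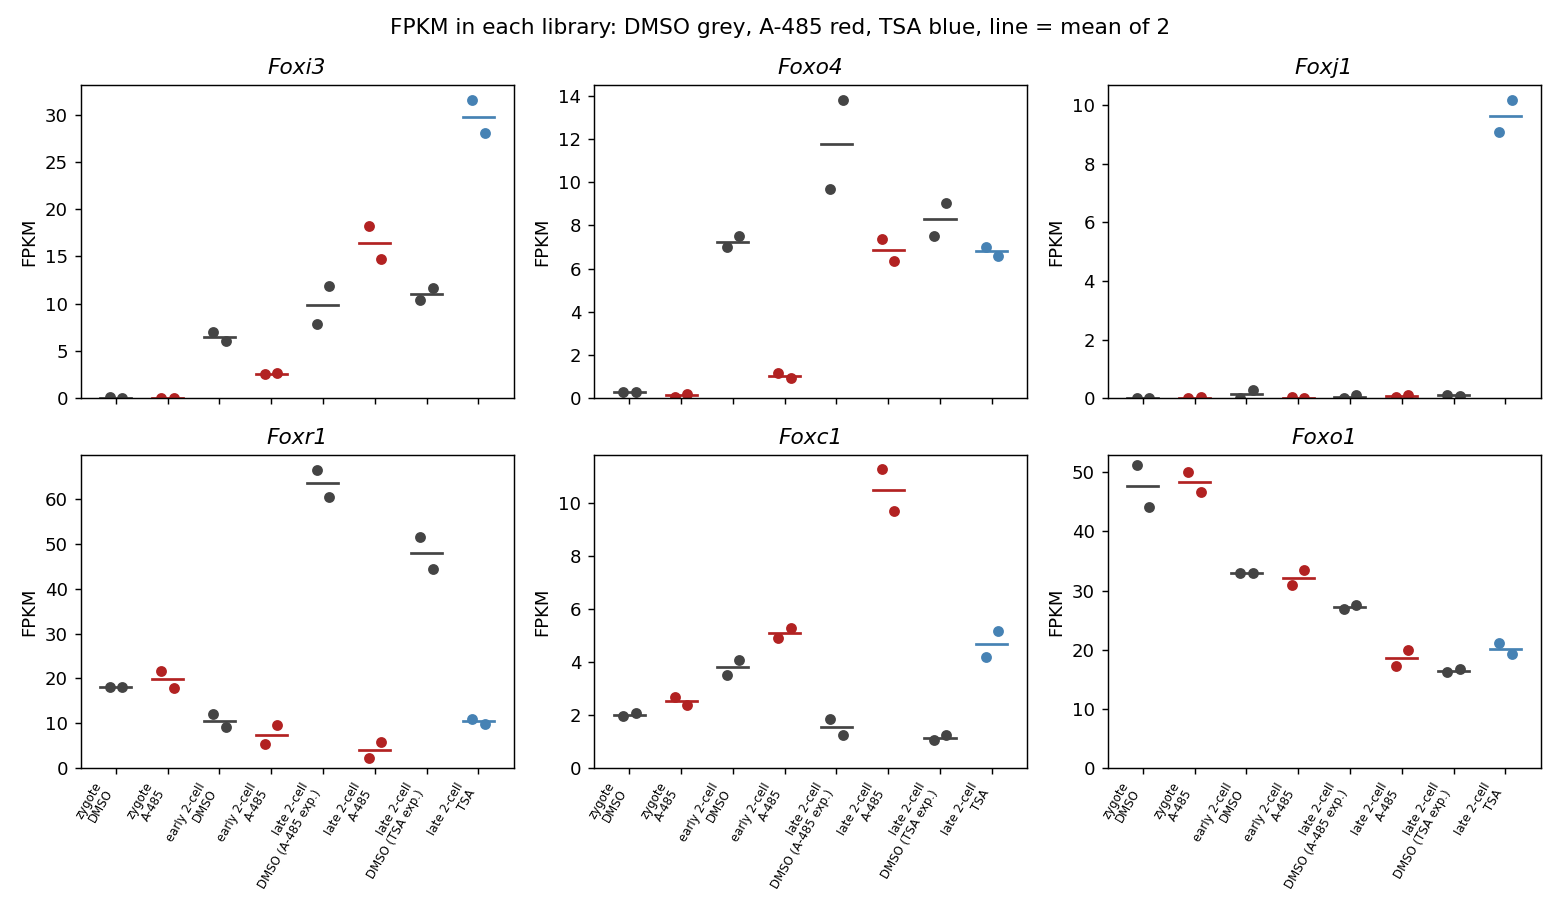
FPKM of 6 forkhead genes in each library (points) of the 8 groups, with the mean of 2 libraries as a line (DMSO grey, A-485 red, TSA blue). Foxi3 and Foxo4 appear in early 2-cell DMSO embryos and are lower in early 2-cell A-485 embryos, Foxr1 peaks in late 2-cell DMSO embryos and is low after either inhibitor, and Foxc1 is highest in late 2-cell A-485 embryos.

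At late 2-cell, A-485 embryos carried transcripts of endoderm, mesoderm, neural and ovarian members, most of them near 0 in DMSO embryos. Of 38 members tested 7 were called higher, against 10.5% of 22822 genes, and 2 were called lower, against 16.8%. All 7 belonged to the 24 members grouped here by roles in later development (endoderm, mesoderm, neural and ectoderm, motile cilia, ovary), of which 19 were tested. Among the 16 tested members of a second group (FoxO, FoxM1, FoxK, FoxN and FoxP members with Foxj2 and Foxj3) 0 were called higher and 1 lower in edgeR. The groups were set with earlier results of these data known. Members near 0 in DMSO could enter the test only through the A-485 libraries, so these counts are descriptions and no support for a difference between the groups. The median log2 fold change was 0.98 over the tested members and 0.28 over all genes tested.

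Foxa1, a pioneer factor of endoderm, had 0.17 FPKM in each DMSO library and 5.17 and 4.09 after A-485 (log2 fold change 4.52 ± 0.47, adjusted p = 1.0e-05). Foxa2, its partner in node and endoderm, had 1 count in the DMSO libraries together and 115 after A-485 (2.00 and 2.38 FPKM), a ratio of 151 (26.6 to 6020). Among the mesoderm members Foxc1 rose from 1.87 and 1.26 to 11.31 and 9.72 FPKM (2.54 ± 0.25, adjusted p = 6.5e-06) and was the most abundant of the 7. Foxq1 rose from 0.04 and 0 to 2.13 and 1.62 FPKM (6.25 ± 0.84, adjusted p = 9.0e-05). Foxf2, a factor of gut mesenchyme, had no count in DMSO and 1.41 and 1.00 FPKM after A-485, at least 15.9-fold higher with 3 counts taken as the floor in each DMSO library. Foxb1, a factor of the diencephalon, had no count in DMSO and 0.60 and 2.06 FPKM after A-485, at least 22.6-fold higher by the same floor, and without A-485 replicate 2 it fell under the FPKM cutoff. Foxl2, the granulosa cell factor, rose from 0 and 0.09 to 1.47 and 1.63 FPKM (5.01 ± 1.02, adjusted p = 0.00216). Treated and control libraries did not overlap for any of the 7. Beyond them, Foxc2, Foxd1, Foxd4, Foxl1 and Foxr2 passed the test and the fold cutoff but not that on FPKM.

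Foxr1 and Foxo4 fell. Foxr1 had 66.54 and 60.37 FPKM in DMSO libraries and 2.34 and 5.84 after A-485, beside 18.02 and 18.01 in DMSO zygotes (log2 fold change of counts -3.17 ± 0.34, adjusted p = 1.4e-05). Foxo4 had 9.68 and 13.82 FPKM in DMSO and 7.37 and 6.33 after A-485 (-1.30 ± 0.24, adjusted p = 0.00105), so that at late 2-cell its treated libraries were closer to their controls than at early 2-cell. Foxi3 was not called (7.86 and 11.86 FPKM beside 18.18 and 14.71, adjusted p = 0.18).

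Foxo1, Foxk2, Foxj3, Foxn3 and Foxo3, all present in zygotes, differed by less than 2-fold at late 2-cell after A-485. Foxo1 had 26.87 and 27.66 FPKM in DMSO and 17.23 and 20.00 after A-485 (log2 -0.74 ± 0.12, adjusted p = 5.0e-04), and Foxk2 (-0.48 ± 0.12) and Foxj3 (-0.36 ± 0.09) were also lower. Foxn3 (0.81 ± 0.14) and Foxo3 (0.35 ± 0.10) were higher, with Foxo3 at 84.71 and 96.56 FPKM in DMSO and 139.79 and 126.18 after A-485. For Foxj3, Foxr1 and Foxn3 the effective length, which follows the isoforms that RSEM assigned, moved with the treatment. It was 1363 and 1403 bases for Foxj3 in DMSO and 2307 and 1994 after A-485, 876 and 921 against 1749 and 1757 for Foxr1, and 3743 and 4124 against 3194 and 2804 for Foxn3. FPKM and counts therefore gave different folds for these 3 genes, and the fold changes quoted are those of counts.

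The A-485 libraries also differed in scale. Their mitochondrial share was 5.428 and 5.347% beside 2.445 and 2.347%, and with mitochondrial genes as the scale the median of all genes at 1 FPKM moved from 0.02 to -0.96 on the log2 scale. The 9 calls were kept on that scale, on which 7 members were higher and 11 lower, Foxo3 turned to lower (-0.63, adjusted p = 0.000244) and Foxn3 stood at -0.16 (adjusted p = 0.42). Of the cumulus and granulosa markers, Has2 was called higher (0.17 and 0.19 against 1.13 and 1.03 FPKM) and Amhr2 lower (6.95 and 10.67 against 0.65 and 0.04) of 10 tested. The summed level of all 13 was 8.89 and 12.57 FPKM in DMSO and 5.00 and 3.75 after A-485, with Fshr and Amh at 0 in all 4 libraries. Of the other marker lists 0 of 2 fibroblast and 0 of 1 sperm genes tested were called by edgeR, 1 of 1 erythroid gene was lower and 1 of 10 oocyte genes higher, the latter summing to 849.5 and 901.88 FPKM in DMSO and 1545.11 and 1564.48 after A-485. All 5 markers of the 2-cell stage were lower (211.78 and 204.18 against 45.26 and 38.95 FPKM summed). The part of these genes and of the scale in the forkhead values was not tested. Foxl2os, a transcript of the strand opposite Foxl2, was called higher as well (4.86 ± 0.92, adjusted p = 0.0013). The library kit keeps strand, but the sources used here do not say whether the counting used it, so the reads of Foxl2 and Foxl2os may not be separated.

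After TSA 14 forkhead genes were raised, most of them genes of later development. Of 40 members tested 14 were called higher, against 13.8% of 23429 genes, and 1 was called lower, against 13.9%. The median log2 fold change was 1.50 over the tested members and 0.13 over all genes. Of the 14, 12 belonged to the 24 members grouped here by roles in later development, of which 20 were tested, and the other 2 were Foxo6 and Foxp4. The limits of grouping and filter given for A-485 hold here too.

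Foxc2, a factor of paraxial mesoderm and lymphatic vessels, rose from 0.13 and 0.30 FPKM in DMSO to 12.85 and 13.21 after TSA (log2 fold change 5.56 ± 0.31, adjusted p = 1.709e-07). Foxj1, the master regulator of motile cilia, rose from 0.11 and 0.07 to 9.09 and 10.19 FPKM (6.41 ± 0.33, adjusted p = 1.028e-07). Foxo6, a FoxO member of brain, rose from 0.31 and 0.30 to 7.40 and 6.11 FPKM (4.12 ± 0.30, adjusted p = 1.076e-06). In the other 14 libraries these 3 genes reached at most 1.39 FPKM.

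Neural and ectodermal members were next. Foxi3, already present in DMSO, rose from 10.41 and 11.68 to 31.58 and 28.03 FPKM (1.08 ± 0.16, adjusted p = 2.98e-04). FPKM ratios and fitted folds differ, since the fits work on counts rescaled by TMM and FPKM does not. Foxd2 rose from 0.11 and 0.15 to 3.60 and 3.31 FPKM (4.37 ± 0.40), and Foxd3, known for neural crest and epiblast, from 0 and 0.09 to 1.75 and 1.53 FPKM (4.75 ± 0.83). Foxi3 was the one of the 14 that lost its call with mitochondrial genes as the scale (0.89, adjusted p = 0.0011).

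Endoderm and mesoderm members made up the rest. Foxa1 rose from 0.34 and 0.24 to 2.20 and 1.63 FPKM (2.37 ± 0.40), Foxc1 from 1.06 and 1.25 to 4.19 and 5.17 FPKM (1.66 ± 0.21) and Foxq1 from 0.06 and 0.04 to 2.75 and 2.94 FPKM (5.33 ± 0.37), all with adjusted p under 0.001. Foxa2, Foxf1 and Foxf2 had no count in either DMSO library. After TSA they had 2.77 and 3.57, 3.32 and 1.51, and 1.45 and 0.90 FPKM, at least 40.5-fold, 36.2-fold and 17.3-fold higher. Foxp4 rose from 0.69 and 0.79 to 1.93 and 2.35 FPKM (1.34 ± 0.30, adjusted p = 0.00445). None of the 14 overlapped between TSA and DMSO libraries. Of the 40 tested members, however, 30 had both TSA libraries above both DMSO libraries and 4 had both below. The share of all genes was not counted. Without TSA replicate 1, Foxf2 fell under the FPKM cutoff.

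Foxr1 was the one that fell. The DMSO libraries here are also the late 2-cell libraries of the stage comparison in which it rose. It went from 51.42 and 44.40 FPKM to 11.00 and 9.90 (-2.36 ± 0.13, adjusted p = 1.65e-07). Foxo4 (7.52 and 9.04 against 7.01 and 6.60 FPKM, log2 -0.65 ± 0.16), Foxm1 (-0.61 ± 0.07), Foxj3 (-0.57 ± 0.06), Foxj2 (-0.45 ± 0.16) and Foxk2 (-0.28 ± 0.07) were lower by less than 2-fold, the last of these turning to 0.08 with total counts as the scale. Foxo1 (-0.07 ± 0.08), Foxo3 (-0.07 ± 0.06) and Foxn2 (-0.13 ± 0.06) had adjusted p-values of 0.55, 0.41 and 0.10.

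Markers of other cell types moved with TSA too. Of 3 erythroid markers tested 3 were called higher, the summed level of all 6 being 44.62 and 46.75 FPKM after TSA and 0.78 and 1.36 in DMSO, while Hbb-bs and Hbb-bt were at 0 in all 4 libraries. Of 4 fibroblast markers tested 3 were called higher (6.80 and 7.00 against 0.90 and 1.91 FPKM summed over 7), with Dcn and Lum at 0. Cumulus markers were lower in sum (5.53 and 5.47 against 12.71 and 14.35 FPKM), but the 11 tested had a median log2 fold change of 0.668. Of these 11, 0 were called higher and 1 lower, and of 4 sperm markers tested 0 were called in edgeR. Of 10 oocyte markers 0 were higher and 1 lower, and of the 5 markers of the 2-cell stage 3 were higher (439.41 and 392.0 against 127.55 and 163.32 FPKM summed). The part of such cells and genes in the forkhead values was not tested.

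**Figure D3:**
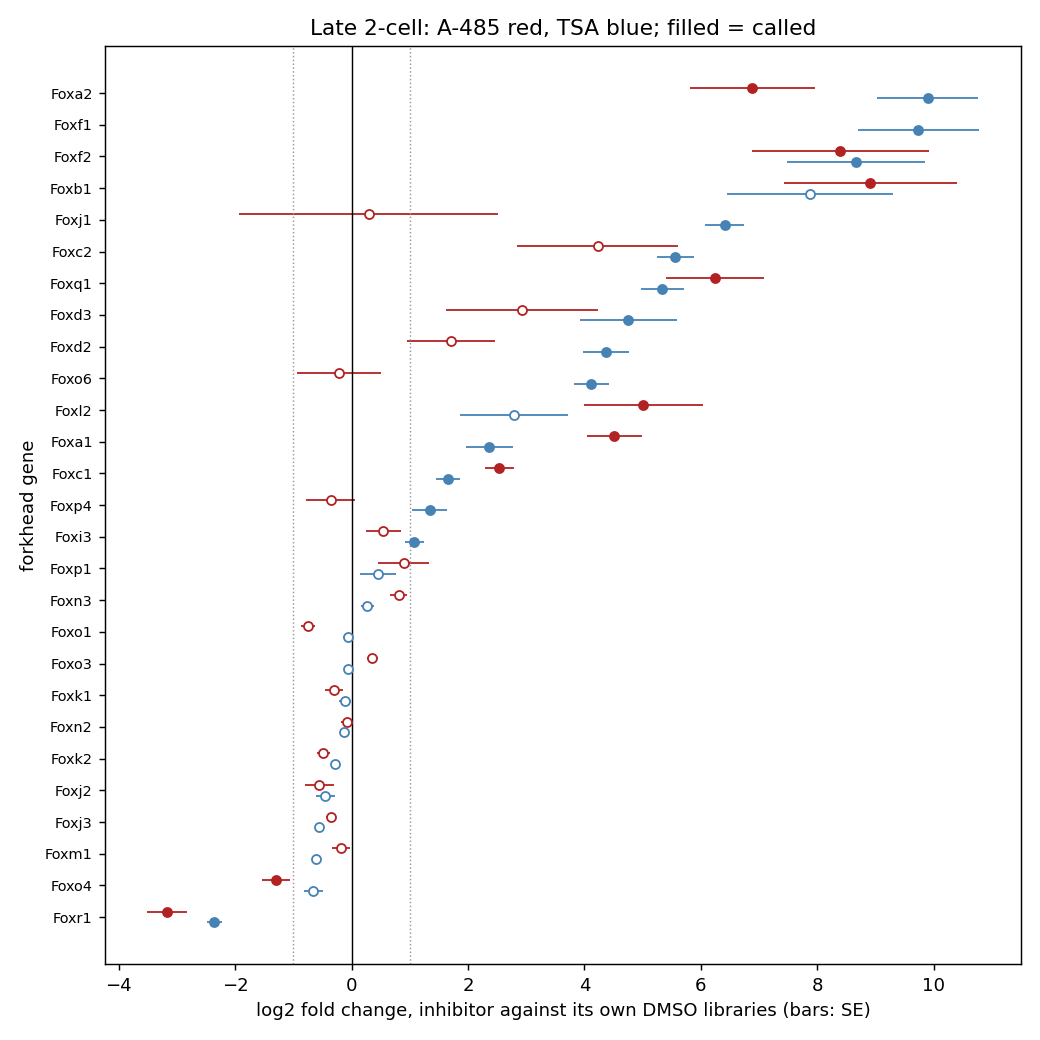
Log2 fold change (x axis, with SE bars) of 27 forkhead genes at late 2-cell after A-485 (red) and TSA (blue), each against its own 2 DMSO libraries, filled where called. Foxj1, Foxo6, Foxc2 and Foxd2 are filled for TSA alone, Foxa1 and Foxc1 for both, and Foxr1 lies left of 0 for both. The bars of Foxa2, Foxb1, Foxf1 and Foxf2 belong to fits against controls with 0 or 1 counts and are no measure of size.

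The treatments of the late 2-cell embryos differed in drug, dose, window and control libraries. Of the 7 members called higher after A-485, 5 (Foxa1, Foxa2, Foxc1, Foxf2 and Foxq1) were also called higher after TSA. These 5 were 71.4% of the A-485 list and 35.7% of the TSA list. Foxb1, called after A-485 alone, had 57 counts after TSA against 0, at least 9.96-fold, and missed the FPKM cutoff at a mean of 0.53. Without that cutoff 12 members were higher after A-485 and 19 after TSA. Over all genes 780 were called higher in both, 32.4% and 24.1% of the lists. The DMSO groups of the experiments served as a control of this comparison. Between them 0 of 32 members tested were called by edgeR (1.19% of 20647 genes higher and 0.136% lower), with 0 by DESeq2. In edgeR 8 of the 32 had an unadjusted p under 0.05, beside 2777 of the 20647 genes, so members were not free of differences between the control groups. Foxo1 alone passed the adjusted threshold there, being lower in the TSA experiment's controls by 0.71 ± 0.10 (adjusted p = 0.00133), which bears on its values at late 2-cell.

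The difference between the late 2-cell effects was itself tested over 8 libraries. Of 41 members tested 1 had a higher effect after A-485, against 2.7% of 26554 genes, and 4 had a lower one, against 10.8%. Foxa1 responded more to A-485 (difference of log2 fold changes 2.04 ± 0.62, adjusted p = 0.030), and Foxj1 (-6.15 ± 1.19), Foxo6 (-4.44 ± 0.62), Foxd2 (-2.77 ± 0.87) and Foxp4 (-1.81 ± 0.54) more to TSA. After A-485 Foxj1 had 0.03 and 0.11 FPKM, Foxo6 had 0.85 and 0.53, and Foxp4 1.81 and 1.17, each overlapping its DMSO libraries (0.02 and 0.09, 0.70 and 0.69, 1.38 and 2.29). Foxd2 had 2.52 and 0.65 FPKM after A-485 beside 0.40 and 0.44. The fits without single libraries gave between 2 and 5 lower calls and between 0 and 2 higher ones, with 2 to 4 of the 5 calls above kept. The calls of Foxd2, Foxa1 and Foxp4 were each lost in several such fits and that of Foxj1 without DMSO replicate 2 of the A-485 experiment, while Foxo6 kept its call in each. With mitochondrial genes as the scale 0 members were higher and 10 lower.

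The effect of A-485 at late 2-cell was compared with that at early 2-cell in the same way. Of 39 members tested 11 had a higher effect at late 2-cell, against 7.6% of 25141 genes, and 1, Foxr1, had a lower one (-2.89 ± 0.41, adjusted p = 9.1e-06), against 7.38%. At early 2-cell Foxr1 had 12.15 and 9.12 FPKM in DMSO and 5.33 and 9.63 after A-485, which overlapped. Foxc1 (2.18 ± 0.30), Foxq1 (5.99 ± 0.99) and Foxa1 (4.84 ± 0.94) were higher at late 2-cell, and so were the differences of Foxi3 (1.89 ± 0.47) and Foxo4 (1.56 ± 0.35), whose effects at early 2-cell were negative. With mitochondrial genes as the scale 7 were higher and 9 lower, and Foxi3, Foxo4 and Foxe1 were among those no longer called. Foxa1, Foxc1, Foxo4, Foxq1 and Foxr1 kept their calls without any single library, and Foxa2, Foxb1, Foxe1, Foxf2, Foxi3 and Foxl2 each lost theirs in at least 1 such fit.

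Genes that act with forkhead factors were followed as lists. At early 2-cell after A-485, 2 of 14 Foxm1 targets, 3 of 16 FoxO targets and 1 of 18 genes of the PI3K and AKT arm were called lower. So were 2 of 8 tested endoderm partners and 1 of 11 partners of FoxK, FoxN and FoxP factors, with 0 called higher in edgeR. Of all genes 7.9% were called lower and 0.402% higher in that comparison. Of 14 targets of Foxm1, the genes of entry into and exit from mitosis, 8 were called lower and 1 higher at late 2-cell after A-485, with a median log2 fold change of -1.24, and 9 were called lower and 0 higher after TSA, with a median of -1.59. The background shares at late 2-cell were 16.8% lower and 10.5% higher after A-485, and 13.9% lower and 13.8% higher after TSA. Cdc20, the activator of the anaphase-promoting complex, was lower by -4.17 ± 0.23 after A-485 and -2.52 ± 0.10 after TSA on the log2 scale, Plk1 by -2.60 in both, and Nek2 by -2.90 and -2.41. Cdc25b was the one called higher after A-485 (1.08 ± 0.21). Foxm1 itself stood at 79.64 and 69.24 FPKM after A-485 beside 73.16 and 82.56 in DMSO (log2 -0.18 ± 0.15, adjusted p = 0.36), and at 70.02 and 71.88 after TSA beside 83.79 and 81.93 (-0.61 ± 0.07, adjusted p = 5.962e-05).

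Of 16 FoxO targets 2 were called higher and 3 lower after A-485 at late 2-cell, near the shares of all genes (10.5% and 16.8%), and 4 higher and 2 lower after TSA (13.8% and 13.9% of all genes). Cdkn1a, the p21 inhibitor of cyclin-dependent kinases, fell by 1.12 ± 0.37 (adjusted p = 0.033) on the log2 scale after A-485 and rose by 1.61 ± 0.14 after TSA. Bcl6 rose after both (2.59 ± 0.53 and 2.30 ± 0.32) and Pink1, a kinase of mitochondrial quality control, fell (-2.88 and -1.39). Of 18 genes of the PI3K and AKT arm that acts on FoxO factors 1 was higher and 2 lower after A-485, and 5 were higher and 2 lower after TSA. Irs1, an adaptor of the insulin receptor, rose after both (3.40 ± 0.26 and 3.50 ± 0.34), and the deacetylase Sirt1 fell (-3.89 and -2.93).

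Of 12 endoderm partners of the FoxA factors 8 were tested, with 5 higher and 1 lower after either inhibitor. Of all genes 10.5% were higher and 16.8% lower after A-485, and 13.8% and 13.9% after TSA, which are the shares for each list here. Sox17 (6.17 ± 0.79 and 3.13 ± 0.58), Pdgfra (6.27 ± 0.31 and 3.32 ± 0.29), Gata6 (3.61 ± 0.48 and 2.42 ± 0.48), Eomes and Cxcr4 rose after A-485 and TSA, and Gata4 fell by 2.1 and by 2.53. Among the Nodal and Smad genes that work with Foxh1, 2 of 13 were higher and 1 lower after A-485, and 3 of 11 higher and 0 lower after TSA in edgeR, Nodal itself rising by 4.10 ± 0.72 after TSA. Of 11 partners of FoxK, FoxN and FoxP factors 0 were higher and 2 lower after A-485 and 0 higher and 1 lower after TSA, with Mta2 called lower after both (-4.33 and -4.02). Foxd2os, antisense to the Foxd2 locus, rose after both (3.28 ± 0.54 and 4.69 ± 0.76).

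Several forkhead genes lie side by side. On chromosome 13 Foxq1, Foxf2 and Foxc1 (GRCm38, chr13:31556134-31812476) are 64.8 and 175.2 kb apart, and all 3 were called higher after each inhibitor. Of the other 16 genes within 250 kb, 4 were tested after A-485 and 2 called higher, A530084C06Rik, which overlaps Foxq1 on the other strand, and 1700018A04Rik, and 5 were tested after TSA and 0 called by edgeR (A530084C06Rik stood at log2 4.07 with adjusted p = 0.016, but at 0.305 FPKM). The next coding gene, Gmds, had log2 fold changes of 0.36 (adjusted p = 0.54) and -0.001 (adjusted p = 0.998). On chromosome 8 Foxf1, Foxc2 and Foxl1 (chr8:121084386-121130644) are 28.0 and 9.0 kb apart. After TSA Foxf1 and Foxc2 were called higher and Foxl1 stayed under the FPKM cutoff with 45 counts against 2, a ratio of 23.6 (6.15 to 200). After A-485 none of these 3 was called, but Foxc2 and Foxl1 missed the FPKM cutoff alone. Foxl1 had 39 counts against 1, a ratio of 51.2 (8.67 to 2080). Foxc2 averaged 0.84 FPKM and Foxf1 0.07. On chromosome 4 Foxd2, called higher after TSA, lies 16.3 kb from Foxe3, which had no count in any library. On chromosome 8 the model Gm20388 overlaps Foxf1, Foxc2 and Foxl1 on their strand and held at most 86.5 counts in a library. Part of the reads of these 3 genes may have been assigned to it.

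Open chromatin was read from 4 lists of ATAC-seq peaks, each made by the authors over 2 replicates, so they carry no replicate error. Of the 44 members 2 had a peak within 1 kb of a transcript start in late 1-cell DMSO embryos and 4 in late 1-cell A-485 embryos (4.545% and 9.091%, against 26.223% and 24.729% of protein-coding genes). At early 2-cell 9 had one in DMSO and 16 in A-485 embryos (20.455% and 36.364%, against 31.781% and 40.996%). The lists held 10214, 7094, 27693 and 13712 peaks. In the 7094 strongest peaks of each list 0, 4, 2 and 6 members had one, against 21.359%, 24.729%, 14.299% and 27.803% of protein-coding genes.

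**Figure D4:**
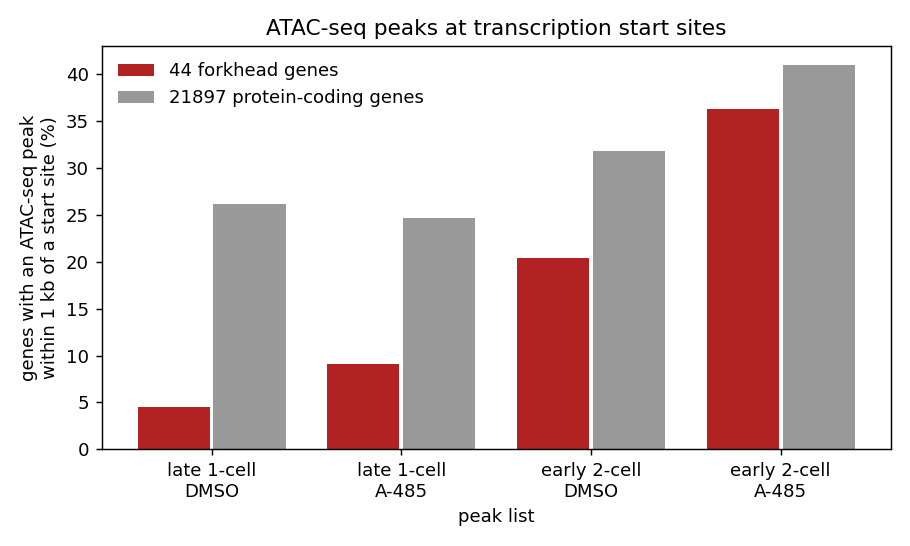
Share of the 44 forkhead genes (red) and of the 21897 protein-coding genes (grey) with an ATAC-seq peak within 1 kb of a transcript start, in percent, in the 4 peak lists. The red bar is lower than the grey one in each list, at 4.545% against 26.223% in late 1-cell DMSO embryos and 36.364% against 40.996% in early 2-cell A-485 embryos.

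Of the 11 members at 5 FPKM or more in DMSO zygotes 9 had a promoter peak in at least 1 list, and of the other 33 also 9. Foxi3, with the CpG-rich promoter shown above, had a peak in late 1-cell A-485 embryos (fold enrichment 6.485 as the authors' caller gave it) and in early 2-cell DMSO (7.913) and A-485 (9.67) embryos. Foxr1 had one in both early 2-cell lists (7.744 and 6.589), as had Foxd2 (7.451 and 7.32) and Foxj3 (6.682 and 5.419). Foxo4, whose RNA was lower at early 2-cell after A-485, had a peak in the A-485 list of that stage alone (9.865). Foxa1 (5.391), Foxc1 (6.671), Foxl2 (4.929), Foxk1 (6.122) and Foxo6 (4.846) also had one there alone, which with Foxo4 made 6 members. Of these Foxk1, Foxo4 and Foxo6 were not called higher after A-485. Of the 7 members called higher at late 2-cell after A-485, 3 had a promoter peak in at least 1 list and 4 had none. Of the 14 members called higher after TSA 5 had a promoter peak in at least 1 list, beside 18 of all 44 members. The other 9 of the 14 had none, among them Foxc2, Foxj1, Foxf1, Foxf2 and Foxq1. The share of protein-coding genes with a peak in at least 1 list was not counted.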

How the data were processed

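Total RNA-seq was read in 16 libraries of pooled embryos. Per the submitters' processing notes and the study's methods, reads were trimmed with Trimmomatic 0.39, mapped to GRCm38 with STAR 2.7.8a and quantified with RSEM 1.3.1. The authors deposited, for each library, an expected count per gene, with TPM and FPKM per effective length. They also deposited RSEM's lengths and posterior SD of each count, treated here as a score. The ATAC-seq peak lists the authors deposited, 1 per group over 2 replicates, hold a fold enrichment (ratio), the −log10 p-value and q-value, and a score. The build of these lists was taken as GRCm38, which the processing notes name, although the methods do not state it for ATAC-seq. TPM was not used in a comparison, and the 8 H3K27ac samples were not analysed here.

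Expected counts were rounded, scaled by TMM and tested with edgeR 4.0.16 (quasi-likelihood F test, Benjamini-Hochberg adjustment over all genes tested) in R 4.3.3, with only the groups compared in each fit and no covariate. Genes with at least 10 counts over those libraries were tested. Genes were called at an adjusted p below 0.05, a 2-fold difference or more and 1 FPKM or more on average in one of the groups. Differences of effects were tested as interaction terms. The SE was taken as the size of the log2 fold change divided by the root of F. Against groups at 0, 3 counts per library were taken as the floor, and ratios on 1 to 3 counts carry exact 95% intervals, all of which cover counting error only. One member and one marker gene are not reported here by name, and the counts include them. Per-library values are given for members called in a treatment comparison or with a mean of at least 5 FPKM in a group. Members, role groups and lists were chosen with earlier results of these data known. Depth ranged from 13206163 to 32585987 counts. Alternatives were DESeq2 1.42.0, scaling by total counts or by 13 mitochondrial genes, no filter on counts or FPKM, all 16 libraries in one fit, a replicate block, leaving out each library, other late 2-cell controls, and other peak windows and peak numbers. Promoters were RefSeq's, GRCm38.p6.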

Additional observations from a re-analysis of the deposited data

Results flagged for a closer look

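Each of these members had an effect that differed between stages or between inhibitors by the interaction test of edgeR, with adjusted p under 0.05, a difference of at least 2-fold and a mean of at least 1 FPKM. Between the A-485 effects at late 2-cell and early 2-cell, the difference of log2 fold changes was 4.84 for Foxa1 (adjusted p = 0.000428), 2.18 for Foxc1, 5.99 for Foxq1, 4.63 for Foxl2 and 3.48 for Foxe1. It was 9.92 for Foxa2, 14.08 for Foxb1 and 7.19 for Foxf2, whose size depends on the fit because at least 1 group was at or near 0 counts. It was 1.89 for Foxi3 and 1.56 for Foxo4, which were lower after A-485 at early 2-cell. Foxr1 had the one negative difference, -2.89 (adjusted p = 9.129e-06).

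Between the late 2-cell effects of A-485 and TSA, which differed in dose, window and controls, the difference was 2.04 for Foxa1 (adjusted p = 0.030), -2.77 for Foxd2 (0.036), -6.15 for Foxj1 (0.00112), -4.44 for Foxo6 (4.473e-05) and -1.81 for Foxp4 (0.026).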

How the results depend on the processing

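Of 53 calls of a member in a comparison, 51 were kept by DESeq2, 52 with total counts as the scale, 46 with mitochondrial genes as the scale, 52 without the count filter, 50 with all 16 libraries in one fit and 35 in every fit that left out a library. With mitochondrial genes as the scale the lower calls became 11 at late 2-cell after A-485, 9 from zygote to early 2-cell and 1 between the DMSO groups, the late against early difference gave 7 higher and 9 lower, and A-485 against TSA gave 0 and 10. On that scale the log2 fold change turned to -0.16 for Foxn3 and -0.63 for Foxo3 at late 2-cell after A-485, to -0.33 for Foxc1, -1.07 for Foxk1, -0.72 for Foxk2, -0.89 for Foxm1 and -0.40 for Foxn2 from zygote to early 2-cell, and to -0.17 for Foxn3 in the late against early difference. Foxk2 after TSA turned to 0.0802 with total counts. Without the FPKM cutoff 12 were higher at late 2-cell after A-485, 7 from zygote to early 2-cell and 2 from early to late 2-cell. The other late 2-cell controls gave 1 lower from early to late. With all 16 libraries 1 was higher at early 2-cell after A-485 and 0 for A-485 against TSA, and without the count filter 2. A peak window of 0.5 kb gave 0 and 2 members at late 1-cell (DMSO and A-485), 2.5 kb gave 7 for A-485, and the same number of strongest peaks gave 0 at late 1-cell DMSO, and 2 and 6 at early 2-cell. The cause of these shifts was not tested beyond the change each setting makes.

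Leaving out single libraries gave 1 to 3 lower calls at early 2-cell after A-485, 7 to 10 higher and 2 to 3 lower at late 2-cell, 13 to 15 higher after TSA, 3 to 4 higher from zygote to early 2-cell, 2 to 3 lower from early to late, 8 to 10 higher for late against early, and 0 to 2 higher and 2 to 5 lower for A-485 against TSA. The early A-485 count was 1 without DMSO replicate 1 or A-485 replicate 1. Same-numbered libraries did not deviate together (correlations -0.03 to 0.08 over 2 pairs), so the numbers were not taken to pair them. With the replicate number as a block 52 of the 53 calls were kept, with 1 lower between the DMSO groups and 2 higher for A-485 against TSA.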
